A study of Mus musculus with 4 samples.

Results

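Divergent gene pairs are neighbouring genes that are read in opposite directions from starts that lie close together, so that both share the stretch of promoter between them. Eya1 intervals at such promoters in the embryonic mouse kidney were selected by position alone. Overlapping peaks of the 2 Eya1 ChIP-seq lists were joined into 5482 intervals on the nuclear chromosomes. A pair was kept when its protein-coding genes lay on opposite strands with the minus-strand gene on the left and the 5′ ends (the starts of the gene records) at most 1000 bp apart, which gave 754 pairs with 1487 genes. An interval counted as a member when it was under 2000 bp wide and within 1 kb of both 5′ ends. In all, 320 of the 5482 intervals were members, at 309 of the 754 pairs.

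Both ChIP samples came from kidneys at E13.5 of Eya1HA-FLAG mice, in which an HA and a FLAG tag had been knocked in to the Eya1 gene, on a mixed C57BL/6J and 129/Sv background. The tagged protein was pulled down through FLAG, with 80 pooled kidneys per ChIP, so no cell type of the kidney was separated and a replicate is a pool rather than an animal. The deposited lists hold only the chromosome, start and end of each peak, and depth and peak height are unknown. The 2 lists differed in kind. They were of like length, but peaks of replicate 1 were broad (median 1069 bp) and those of replicate 2 narrow (187 bp). The input and IgG controls were not analysed here.

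Eya1 is a coactivator and phosphatase that keeps nephron progenitors in their undifferentiated state. It has no DNA-binding domain of its own and reaches DNA through partners such as Six2. Divergent promoters are typically rich in CpG dinucleotides and poor in TATA boxes, and many drive housekeeping genes for DNA repair, mitochondria, translation and RNA processing. Because the starts lie so close, a broad peak at such a promoter can cover both of them. A narrow peak can lie wholly inside either gene. The side of a peak or of its midpoint gives its position only. Which gene a peak acts on was not tested.

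The stretch between the 5′ ends is shown for 4 pairs that were chosen by gene list or by a match to the REST element. These are the sequences both genes share, and peaks of both replicates lay at each pair. They are from the plus strand of mm10, and capitals mark matches on either strand to the NFY motif CCAAT, the SP/KLF motif GGGCGG or the ETS motif CCGGAAG. The stretches are chr13:14613166-14613239 between Mrpl32, a mitochondrial ribosomal protein gene, and Psma2, a proteasome subunit gene; chr2:26910678-26910763 between Med22, a Mediator subunit gene, and Rpl7a, a ribosomal protein gene; chr13:24831541-24831678 between Acot13 and Tdp2, which encodes a DNA repair phosphodiesterase; and chr2:26933929-26934046 between Surf4 and Stkld1.
Mrpl32/Psma2: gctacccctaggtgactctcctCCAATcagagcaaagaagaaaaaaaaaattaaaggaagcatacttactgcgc
Med22/Rpl7a: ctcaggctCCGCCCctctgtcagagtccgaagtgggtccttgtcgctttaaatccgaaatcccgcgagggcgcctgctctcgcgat
Acot13/Tdp2: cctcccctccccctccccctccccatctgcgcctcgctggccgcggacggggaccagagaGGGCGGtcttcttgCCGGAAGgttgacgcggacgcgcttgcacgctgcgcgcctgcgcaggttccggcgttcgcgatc
Surf4/Stkld1: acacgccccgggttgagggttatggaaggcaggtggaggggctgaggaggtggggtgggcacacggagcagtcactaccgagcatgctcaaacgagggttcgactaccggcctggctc

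The 4 shared stretches ranged from Mrpl32/Psma2, with 1 CpG and 41.9% GC in 74 bases, to Acot13/Tdp2, with 19 CpG and 73.2% GC in 138 bases. At none of the 4 did the midpoint of a replicate 2 peak fall inside the stretch shown. It lay 236.5 bp past the 5′ end of Psma2, 477.5 bp past that of Rpl7a and 429.5 bp past that of Tdp2. At Surf4 there were 2 replicate 2 peaks, 703 and 1050.5 bp past the 5′ end.

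A replicate 2 peak and the window at the same distance on the partner gene are shown for 2 further pairs, in which neither window holds an annotated exon. They were chosen after their values were seen, as the pairs nearest to the median distance of replicate 2 peaks among those that allowed the display. Each is written along the strand of its gene, with every CpG in capitals. Pigf encodes a subunit of GPI-anchor synthesis and its peak lies at chr17:87025115-87025254, minus strand, beside chr17:87025702-87025841, plus strand, in Cript. Ndufb3 encodes a subunit of respiratory complex I and its peak lies at chr1:58586673-58586789, plus strand, beside chr1:58585918-58586034, minus strand, in Fam126b.
Pigf, peak: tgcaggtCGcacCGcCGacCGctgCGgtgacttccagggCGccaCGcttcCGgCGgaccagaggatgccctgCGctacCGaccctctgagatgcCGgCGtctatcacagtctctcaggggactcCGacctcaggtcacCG
Cript, partner window: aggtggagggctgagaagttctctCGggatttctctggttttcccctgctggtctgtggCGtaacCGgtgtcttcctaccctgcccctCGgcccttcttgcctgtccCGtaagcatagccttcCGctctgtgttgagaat
Ndufb3, peak: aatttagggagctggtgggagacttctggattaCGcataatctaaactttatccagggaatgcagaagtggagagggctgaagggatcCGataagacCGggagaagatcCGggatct
Fam126b, partner window: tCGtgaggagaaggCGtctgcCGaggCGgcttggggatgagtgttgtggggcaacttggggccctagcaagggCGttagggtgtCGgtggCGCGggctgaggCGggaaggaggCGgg

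The Pigf peak held 15 CpG against 6 in the window of Cript. Ndufb3 showed the opposite order, with 4 CpG in the peak and 10 in the window of Fam126b. Peaks and partner windows were not compared in this way over all pairs. The counts on the sides of the pairs, given further on, use the 500 bp past each 5′ end instead.

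The intervals were placed over the genes more often than between them. The rule let an interval lie up to 1 kb from both ends, while the median gap at occupied pairs was 124 bp. Most of the allowed room was thus over the genes, and the share expected from it was not worked out. Of the 329 combinations of an interval and a pair (9 intervals lay near more than 1 pair), 157 covered both 5′ ends, 73 covered 1 and 99 covered none. The midpoint fell between the 5′ ends in 28 of 329 (8.51%, exact 95% interval 5.73 to 12.1%), on the side of the minus-strand gene in 155 and on that of the plus-strand gene in 146. All intervals given for shares here are exact Clopper-Pearson intervals, which cover counting error only. Annotated exon lay under some part of 316 of the 329 intervals, and the median share of exonic bases was 50.9%.

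The narrow peaks of replicate 2 set the position more closely. A peak is counted here and below once for each pair near its interval. The 194 replicate 2 peaks in members thus count as 199, and the 272 of replicate 1 as 280. Of the 199, 3 had the midpoint between the 5′ ends (1.51%, 0.312 to 4.34%). Another 99 lay in the minus-strand gene and 97 in the plus-strand gene. Of the 3, the peak at Gm43951/Txndc17 is counted again in the minus-strand gene of 4933427D14Rik/Txndc17. The midpoint lay a median of 269 bp past the nearer 5′ end, with an interquartile range of 201.5 to 387.5 bp. In replicate 1, 28 of 280 peaks had the midpoint between the ends (10.0%), and the median distance past the nearer end was 229.5 bp. Both lists thus centred inside a gene, with the broad list closer to its start. Of the 199 replicate 2 midpoints, 112 were on annotated exons and 84 on introns or other sequence past the end.

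The gap between the starts of many pairs is narrower than a peak is wide, which leaves little room between them. Among pairs with a gap of at least 200 bp, the replicate 2 share between the ends was 4.92%. In the widest class, gaps of over 500 bp, 2 of 21 replicate 2 peaks and 4 of 22 replicate 1 peaks lay between the ends. Wrn, the gene of a DNA helicase, and its neighbour Purg had 1 of those 2. The choice of start also mattered. With the innermost start among the transcripts that the annotation marks as APPRIS principal, 21 of 135 replicate 2 peaks (15.6%, 9.90 to 22.8%) fell between the starts, and with the outermost such start 8 of 135 (5.93%) did. Measured from the nearest annotated start of any coding transcript of the gene, the replicate 2 midpoint still lay a median of 202 bp past it.

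**Figure D1:**
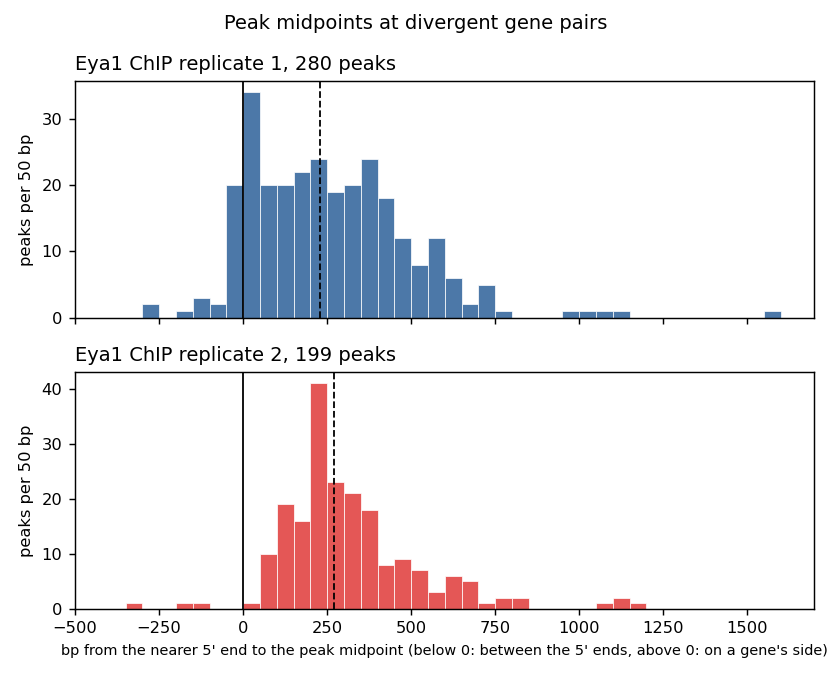
Histograms of the distance in bp from the nearer 5′ end of a divergent pair to the midpoint of each Eya1 peak (x axis; solid line at the 5′ end, dashed line at the median), as peaks per 50 bp (y axis), for replicate 1 above and replicate 2 below. A peak is counted once for each pair near its interval. The replicate 2 midpoints gather around their median of 269 bp inside a gene. Between the 5′ ends lie 3 of 199 in replicate 2 and 28 of 280 in replicate 1.

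At single promoters the midpoints also lay mostly past the 5′ end. Their distances cannot be set against those at pairs. A member had to lie within 1 kb of both 5′ ends, and its distance was taken from the nearer end. Single promoters are the 18811 protein-coding 5′ ends with no other protein-coding 5′ end within 2000 bp. Replicate 2 midpoints there lay a median of 315.5 bp past the 5′ end and 185 of 2337 were upstream of it (7.92%). For replicate 1 the median was 336.5 bp, with 210 of 2754 upstream (7.63%). Upstream of a gene of a divergent pair lies its partner, so a peak upstream of one start could fall within the other gene.

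Taken by their whole extent, replicate 2 peaks lay in 1 gene of the pair. Counted once per pair as above, 185 of 199 replicate 2 peaks lay wholly past a 5′ end, with no base between the ends (93.0%, 88.5 to 96.1%). Both ends were covered by 2. Of 280 replicate 1 peaks, 54 lay wholly past an end and 156 covered both, so that most broad peaks reached into both genes and only their midpoint gives a side. Replicate 2 had peaks in member intervals at 180 pairs, with midpoints in the minus-strand gene alone at 86, in the plus-strand gene alone at 82, in both at 9 and only between the ends at 3. At 163 of the 180 pairs there was 1 replicate 2 peak, which can have its midpoint in only 1 place. Replicate 1 had peaks at 263 pairs, 1 peak at 246 of them, with the midpoints in 1 gene alone at 221 and in both at 15.

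Peaks of both lists lay in member intervals at 135 pairs, and at 124 of these the replicate 2 peaks were on 1 side only. The replicate 1 midpoint was on that same side at 91 of the 124 (73.4%, 64.7 to 80.9%), on the opposite side at 12, only between the ends at 14 and in more than 1 place at 7. The peaks of the lists overlapped at all but 1 of the 124, so their sides were not independent of each other. Where no replicate 1 peak covered both ends, the sides were the same at 40 of 48 pairs. A replicate 1 peak of this kind that overlaps a replicate 2 peak past 1 end cannot have its midpoint in the other gene. That count therefore gives no separate measure of agreement. At Srsf7/Ttc39d all 3 replicate 2 peaks and the replicate 1 midpoint lay in Srsf7, the gene of a splicing factor. Fam126b/Ndufb3, shown above, was one of the pairs with opposite sides, with the replicate 1 midpoint 82 bp past the start of Fam126b and the replicate 2 midpoint 347 bp past that of Ndufb3.

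The gene with the peak midpoint more often had the more CpG-rich start. In the 500 bp past the 5′ end, the gene with the replicate 2 peak held a median of 45.0 CpG (interquartile range 35.0 to 56.0) and its partner 28.5 (19.0 to 41.0). The peak side had more CpG at 124 of the 163 pairs with unequal counts (76.1%, 68.8 to 82.4%). With the replicate 1 midpoints the medians were 44.5 and 28.0, and the peak side had more CpG at 178 of 216 pairs (82.4%, 76.7 to 87.2%). GC content differed likewise. Its medians were 66.6% and 56.6% in replicate 2, higher on the peak side at 132 of 166 pairs, and 65.6% and 56.6% in replicate 1, higher at 187 of 219.

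Other features of the side differed less between the genes. GC skew, the excess of G over C on the strand of the gene, was higher on the peak side at 83 of 168 pairs in replicate 2 (49.4%, 41.6 to 57.2%) and at 125 of 220 in replicate 1 (56.8%, 50.0 to 63.5%). Exon made up a median of 73.7% of the 500 bp on the peak side and 65.0% on the other in replicate 2, with the peak side higher at 87 of 157 pairs (55.4%, 47.3 to 63.3%). In replicate 1 the medians were 71.0% and 60.7%, with the peak side higher at 125 of 207 (60.4%, 53.4 to 67.1%). These side features were chosen after the positions of the peaks had been seen. The part of GC-dependent read coverage in the choice of side was not tested.

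**Figure D2:**
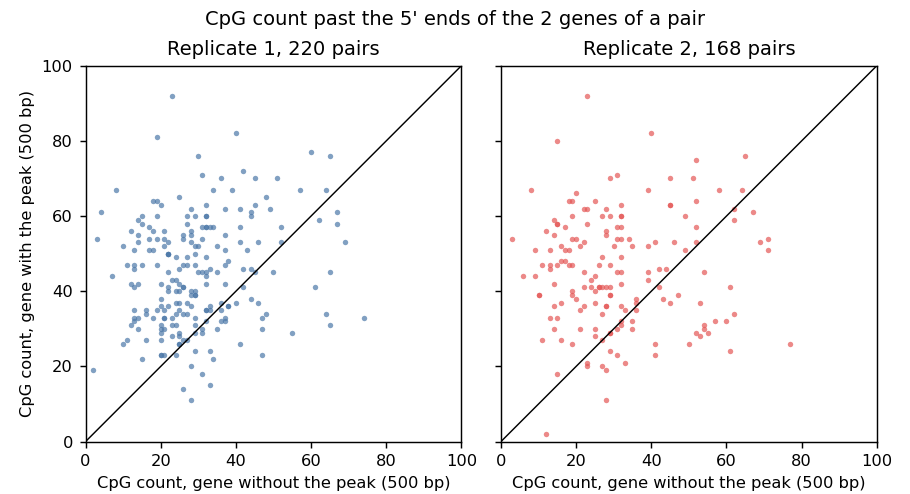
CpG count in the 500 bp past the 5′ end of the gene with the peak midpoint (y axis) against that of its partner (x axis). Each point is 1 pair with midpoints on 1 side only, for replicate 1 (220 pairs) and replicate 2 (168 pairs). The line marks equal counts, and most points lie above it (178 of 216 and 124 of 163 with unequal counts).

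Over the pairs with midpoints on 1 side, the median difference of the peak side from the other was 15 CpG in each replicate. Obsl1/Inha, Klhl28/Togaram1 and Nae1/Car7 were among the members with the most replicate 2 bases and differed by more. Obsl1/Inha joins a cytoskeletal adaptor gene and the gene of the inhibin alpha subunit. Both lists had their peak midpoint in Obsl1, which held 56 CpG against 12 past the start of Inha. In Klhl28/Togaram1 both midpoints lay in Togaram1, a gene of ciliary microtubules, with 42 CpG against 14 in Klhl28. The replicate 1 peak there covered both 5′ ends. Nae1, a subunit of the enzyme that activates NEDD8, had 55 against 14 in the carbonic anhydrase gene Car7. There were exceptions. In Med22/Rpl7a both lists had the midpoint in Rpl7a, with 41 CpG against 42 in Med22, although the replicate 1 peak covered both 5′ ends. In Brca1/Nbr1 both had it in Nbr1, with 24 against 29 in Brca1.

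When each gene was taken on its own, the share with a peak followed the CpG count past its start, at pair genes as at single promoters. A replicate 2 midpoint lay 1 to 1000 bp past the 5′ end of 209 of 1487 pair genes (14.1%, 12.3 to 15.9%). At pair genes with 20 to 29 CpG in the 500 bp 24 of 400 had one, at 40 to 49 CpG the share was 21.4% of 210, and at 60 to 69 CpG it was 40.8% of 76. Single promoters with the same counts had 4.94%, 18.6% and 37.9%. The gap was widest at 50 to 59 CpG, with 38.8% of 121 pair genes (30.1 to 48.1%) and 29.1% of single promoters, and in replicate 1 with 46.3% and 37.2%. In replicate 1 pair genes were lower than single promoters at 40 to 49 CpG (23.3% against 26.5%) and at 60 to 69 CpG (36.8% against 39.4%). Weighted to the CpG counts of the pair genes, single promoters had 12.1%, so that pair genes were 1.93 points higher, or 4.01 points with GC percent in place of CpG. In replicate 1 the shares were 16.4% and 15.7%, a difference of 0.710 points. Over the replicates the difference was 1.32 points ± 0.862 (SD, n = 2). No test was run for any comparison here, since there were 2 samples of 1 group.

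**Figure D3:**
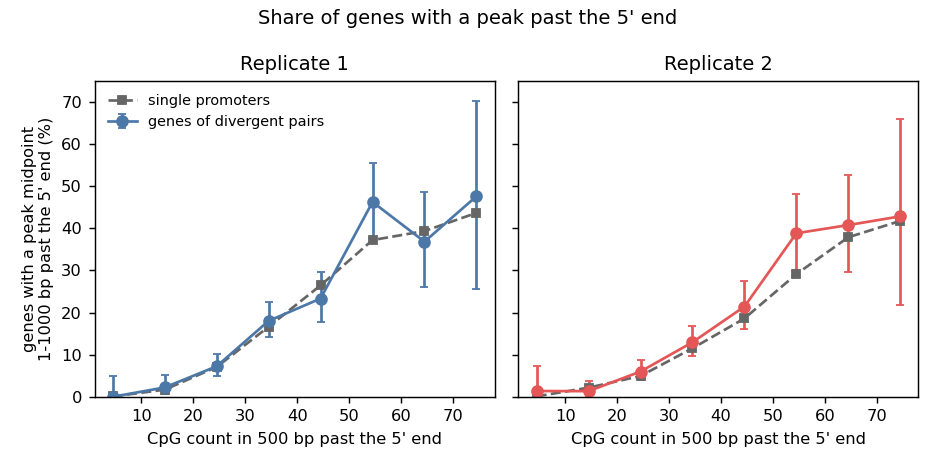
Share of genes with a peak midpoint 1 to 1000 bp past the 5′ end (y axis, %) by CpG count in the 500 bp past it (x axis), for genes of divergent pairs (circles, with exact 95% intervals) and single promoters (squares), in replicate 1 and replicate 2. In replicate 2 both kinds of gene climb, from 21.4% and 18.6% at 40 to 49 CpG to 40.8% and 37.9% at 60 to 69 CpG. In replicate 1 pair genes stand at 46.3% at 50 to 59 CpG and 36.8% at 60 to 69, and single promoters at 37.2% and 39.4%.

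The sign of that comparison depended on how CpG was measured. With CpG measured as the observed over expected ratio in 1 kb centred on the 5′ end, the difference between pair genes and single promoters was -7.51 points in replicate 2 and -9.89 points in replicate 1. That window reaches 500 bp to the partner's side for a pair and into upstream sequence for a single promoter. The measure, width and position of the window changed together, and which of them mattered was not tested.

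Counted as whole promoters, more divergent pairs than single promoters had an Eya1 interval, and the difference was smaller beside single promoters of like CpG content. An interval lay at 41.0% of the 754 pairs (37.4 to 44.6%). The background was 19.8% of all 21938 protein-coding genes and 16.9% of the single promoters. By list, replicate 1 had 35.0% of pairs and 14.3% of single promoters, and replicate 2 had 26.3% and 11.4%. Weighted to the CpG content of the pairs (observed over expected CpG in 1 kb on the centre of the pair or the single 5′ end, in steps of 0.1), the single promoters had 34.3%, which left the pairs 6.67 points higher. The difference was 5.83 points in replicate 1 and 2.79 in replicate 2, a mean of 4.31 ± 2.16 (SD, n = 2). It depended on the limits used. It was 1.45 points with intervals of both lists only and -3.11 points when the interval had to lie within 100 bp of both ends, and with GC percent in place of the CpG ratio 13.7 of the 24.1 unweighted points remained. A pair offers 2 genes to hold a peak and a single promoter offers 1. In turn, an interval had to be near both ends of a pair but only 1 end of a single promoter. With each pair gene taken on its own and weighted by the CpG ratio at its 5′ end, the difference was 7.11 points in the merged list. There an interval within 1 kb on either side of the 5′ end counted, so 1 interval could count for both genes of a pair. With only midpoints past the gene's own start counted, the same ratio gave -9.89 points in replicate 1 and -7.51 in replicate 2, as above.

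**Figure D4:**
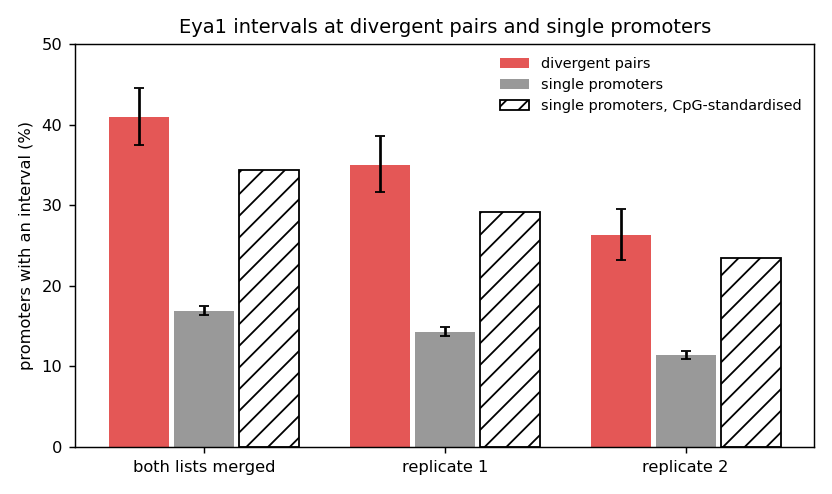
Share of promoters with an Eya1 interval (y axis, %) for both lists merged and for each replicate: divergent pairs, single promoters (both with exact 95% intervals), and single promoters weighted to the CpG content of the pairs (hatched, no interval). For the merged list the bars stand at 41.0%, 16.9% and 34.3%.

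Within the pairs, the share with an interval climbed with CpG content. It was 18.8% of 64 pairs at a ratio of 0.5 to 0.6, 32.8% of 119 at 0.6 to 0.7, 52.5% of 198 at 0.8 to 0.9 and 76.0% of 25 at 1.0 to 1.1. Single promoters in the same steps had 10.6%, 19.2%, 45.1% and 61.5%. At 0.7 to 0.8 and at 0.9 to 1.0 the kinds lay closer, with 35.6% of 194 pairs against 34.1% and 57.0% of 100 pairs against 55.5%. Pairs with an interval had a median ratio of 0.823 and 62.6% GC, and the other pairs had 0.747 and 58.5%. The distance between the starts separated them less, with a median gap of 124 bp at pairs with an interval and 133 bp at the rest. By gap, the share ran from 42.9% of 312 pairs at 1 to 100 bp to 31.8% of 66 at over 300 and up to 500 bp and 35.7% of 70 at over 500 bp, with overlapping intervals.

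The pairs above exclude those whose gene records cross at the 5′ ends, so that both genes cover the same first bases. There were 457 such pairs with ends crossed by up to 1000 bp, and 43.3% of them had an interval. Weighted by CpG as before, they exceeded single promoters by 8.45 points ± 2.16 (SD, n = 2).

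Agreement between the lists at the pairs was partial. Peaks of both replicates made up 133 of the 320 member intervals (41.6%, 36.1 to 47.2%), replicate 1 alone 139 and replicate 2 alone 48. At single promoters 45.0% of 3332 intervals held both. Counted by pair with each list taken on its own, before joining and before the width limit on joined intervals, 130 of the 264 pairs in replicate 1 were also in replicate 2 (49.2%), which is 65.7% of the 198 pairs in replicate 2. Members of replicate 2 alone were short, with a median of 153 bp, and 45 of their 49 combinations with a pair covered neither 5′ end. Replicate 2 peaks had a median width of 179 bp at pairs and 199 bp at single promoters, and for replicate 1 the medians were 1143 and 1041 bp.

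The members with the most replicate 2 bases were led by Pcmt1/Lats1, where the interval at chr10:7680581-7681913 held 924 such bases. Lats1, a kinase of the Hippo pathway, carried a 798 bp replicate 2 peak, and a second peak of 126 bp lay in Pcmt1, a protein-repair methyltransferase gene, making it one of the 9 pairs with peaks on both sides. At Srsf7/Ttc39d the interval held 696 replicate 2 bases, and at Obsl1/Inha 685 in 1 peak. Togaram1 had a peak of 632 bp, with its midpoint 336.5 bp past the start. Setd3, a histidine methyltransferase gene, had a peak of 591 bp, while Ccnk, the gene of the cyclin of a transcription kinase, had none on its side. Nae1 had a peak of 522 bp. Zcchc3, a zinc-finger gene, had one of 753 bp, with 67 CpG past its start against 8 past that of 6820408C15Rik. The replicate 1 midpoint lay in the same gene as a replicate 2 midpoint at each of these pairs.

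Of 15 listed pairs known for their divergent promoters, 7 met the rule and 3 of these had a member, where 41.0% of all pairs had one. Between Brca1, a DNA repair gene, and Nbr1, an autophagy receptor gene, the 5′ ends lie 194 bp apart. A replicate 2 peak of 330 bp covered the first bases of Nbr1, and a replicate 1 peak of 552 bp lay 883 bp from the farther end, so the lists did not overlap there. Psmb1/Tbp, the genes of a proteasome subunit and the TATA-binding protein, had a replicate 1 peak of 847 bp in Tbp alone, whose start held 52 CpG against 10 in Psmb1. Mcm4/Prkdc, which encode a replication helicase subunit and a repair kinase, had 2 replicate 1 peaks, 1 in Mcm4 and 1 centred between the ends, and none in replicate 2. Atm/Npat, Mrps12/Sars2, Mutyh/Toe1 and Ercc8/Ndufaf2 had no member. The other 8 pairs have crossed 5′ ends and fall outside the rule. Of these, Hspd1/Hspe1 (mitochondrial chaperonins) and Ranbp1/Trmt2a had an interval of both lists.

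The gap between the starts ranged from 1 bp at Slc7a6os/Prmt7 to 987 bp at Btf3l4/Txndc12 among members, and the nearest pair outside the limit was Caskin2/Tsen54 at 1085 bp. The widest member, at Ift80/Smc4, was 1967 bp, and the narrowest interval left out for its width was 2058 bp at Gtf3c4/Ddx31. For 25 pairs the only interval was of 2000 bp or more. The member farthest from its farther end, at Mepce/Zcwpw1, lay 986 bp away, and Plag1/Chchd7 was left out at 1036 bp.

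REST is a repressor of neuronal genes that binds the RE1 element, a 17 bp motif. With at most 2 mismatches on either strand, RE1 lay in 31 of 320 member intervals (9.69%) and in 12.8% of intervals at single promoters. It lay in 2.30% of promoter windows of occupied pairs and in 2.96% of those of all genes. The windows run from 250 bp before to 50 bp after each 5′ end. The best matches had 1 mismatch and are shown because they fall within named intervals of both lists. They lie at chr13:24831487-24831503, plus strand, chr17:25239736-25239752, plus strand, and chr2:26932832-26932848, minus strand.
Acot13/Tdp2: TTTAGCGCCCCAGCGCG
Gnptg/Tsr3: GTCAGCACCTCGGCCAG
Surf4/Stkld1: GTTAGAGCCGGAGAGAG

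The matches at Gnptg, which encodes a subunit of a lysosomal enzyme-sorting transferase, and at Surf4, an endoplasmic reticulum cargo receptor gene, lay inside a replicate 2 peak. The match at Acot13/Tdp2 lay in the replicate 1 peak but outside the replicate 2 peak, which was in Tdp2. All 3 were over 400 bp from the midpoint of the interval.

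Promoter windows of the pairs held motifs of housekeeping promoters whether or not Eya1 was there. The ETS motif CCGGAAG, on either strand as for every motif here, lay in 27.6% of windows of the 609 genes of occupied pairs and in 27.1% of those of the other 878, against 10.8% of all protein-coding genes and 17.4% of single promoters with an interval. The SP/KLF motif GGGCGG lay in 72.1% and 66.7%, against 43.0% of all genes. The NFY motif CCAAT lay in 39.9% (36.0 to 43.9%) and 46.8% (43.5 to 50.2%), with intervals that overlap, and in 39.0% of all genes. In the stretch between the 5′ ends, for gaps of at least 60 bp, NFY lay at 45.3% of 236 occupied and 50.4% of 357 other pairs. The TATA motif TATAAA lay in 3.28% and 4.67%, against 12.6% of all genes.

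Less frequent motifs also had overlapping intervals between the kinds of pair. NRF1, GCGCATGCG, lay in 6.24% of windows at occupied pairs and 3.76% at the others, YY1, AAGATGGCG, in 6.24% and 5.13%, CRE, TGACGTCA, in 5.58% and 3.76%, and the E-box CACGTG in 9.52% and 12.8%. All genes had 2.48%, 1.70%, 2.43% and 7.75%. The MEF3 motif TCAGGTT, read by Six2 and its relatives, lay in 3.12% and 3.19%, against 3.93% of all genes. These are matches of letters only. Pairs share bases between the windows of their genes, so the windows of a pair are not independent.

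At the midpoint of the interval the motifs of housekeeping promoters were less frequent than midway between the starts, a stretch that 158 of the 329 intervals covered whole. In 200 bp centred on the midpoint of the interval, ETS lay at 11.0% of the 309 occupied pairs, NFY at 14.2% and SP/KLF at 47.2%. In 200 bp centred between the 5′ ends of the same pairs they lay at 23.9%, 34.6% and 62.5%. NRF1 lay at 0.324% and 5.50%. RE1 had the other order, with 1.94% and 0.971%.

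By function, the genes of the pairs were described with 10 lists of symbols, which held 296 of the 1487 genes. Of all 1487, 609 belonged to a pair with an interval (41.0%, 38.4 to 43.5%). For 8 of the lists the exact interval of the share included that value. The others were histones and the kidney development list, which had no gene in a pair. The counts below give first the genes at pairs with an interval and then those whose own side held a peak midpoint in either list. Over the 608 symbols at such pairs, 324 had a midpoint on their own side (53.3%, 49.2 to 57.3%) and 108 had one of both lists (17.8%), and no list is called different from that.

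In the list of RNA splicing and processing, 18 of 43 genes were at occupied pairs and 13 of the 18 held a midpoint on their own side. Both lists had a midpoint in Ddx42, Ddx51, Dhx38, Hnrnpa2b1, Hnrnpul2, Sart3, Srsf11 and Srsf7, which are genes of RNA helicases, RNA-binding proteins and splicing factors. At Ddx42 a further replicate 2 peak lay in the partner gene Ccdc47, and the replicate 1 peak covered both 5′ ends. In the list of ribosome and translation it was 13 of 25 genes, 7 of them on their own side. Midpoints of both lists lay in Rpl4, Rpl7a and Rpl9, ribosomal proteins, and in Eif5b, an initiation factor. For ubiquitin and proteasome it was 22 of 43, with 15 on their own side. Both lists had a midpoint in Cul4a, a ubiquitin ligase scaffold, Fbxo38, Psma2 and Ube2k.

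Transcription machinery had 16 of 29 genes at occupied pairs and 8 on their own side. The genes with midpoints of both lists included Gtf3c1, Polr1d and Taf5l. Tbp and Polr3a, a catalytic subunit of RNA polymerase III, held a midpoint of 1 list. The list of chromatin regulators had 7 of 10 genes at occupied pairs, among them Brd8, Rbbp4 and Setd3 with midpoints of both lists. It was made by gene symbols and their prefixes, so it also holds genes such as Setd3, the histidine methyltransferase gene named above. DNA replication and repair had 13 of 37 genes (35.1%, 20.2 to 52.5%), and 4 of the 13 held the midpoint themselves: Orc3 in both lists, and Mcm4, Smc6 and Xrcc1 in 1. At Brca1, Polh, Polk, Rad17 and Wrn no midpoint of either list lay on the side of the repair gene.

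Mitochondrial translation and respiration had 17 of 48 genes (35.4%, 22.2 to 50.5%). A midpoint lay on the own side of 11, among them Ndufa2, Ndufa5, Ndufa8 and Ndufb3 of complex I and Sdha of complex II, and at none of the 11 did both lists place it there. Cell cycle, centrosome and cilium had 18 of 34 genes, 6 of them on their own side. Midpoints of both lists lay in Cdc27, a subunit of the anaphase-promoting complex, and Cenpn, a centromere protein. The intraflagellar transport genes Ift122, Ift140, Ift46 and Ift80 were at occupied pairs without a midpoint on their side. Pairs with both genes in lists numbered 42, and 13 of these had an interval (31.0%, 17.6 to 47.1%), where 41.0% of all pairs had one. The 42 include 13 pairs of 2 histone genes, none of which had an interval.

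No histone gene of a pair had an interval. They were the list with the largest share in divergent pairs, 27 of 79 genes, and 0 of the 27 had an interval. These genes make up 14 pairs, and 0 of 14 allows a share of up to 23.2%. At single promoters 7 of 27 histone genes had an interval (25.9%). Of the pairs, 13 joined 2 histone genes, and their median CpG ratio of 0.942 lies in the step at which 57.0% of all pairs had an interval. Histone genes are near-identical copies of each other, and how reads that map to several copies were treated is not given in the sources used here. None of the 52 listed genes of nephron progenitors and kidney development was in a divergent pair.

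**Figure D5:**
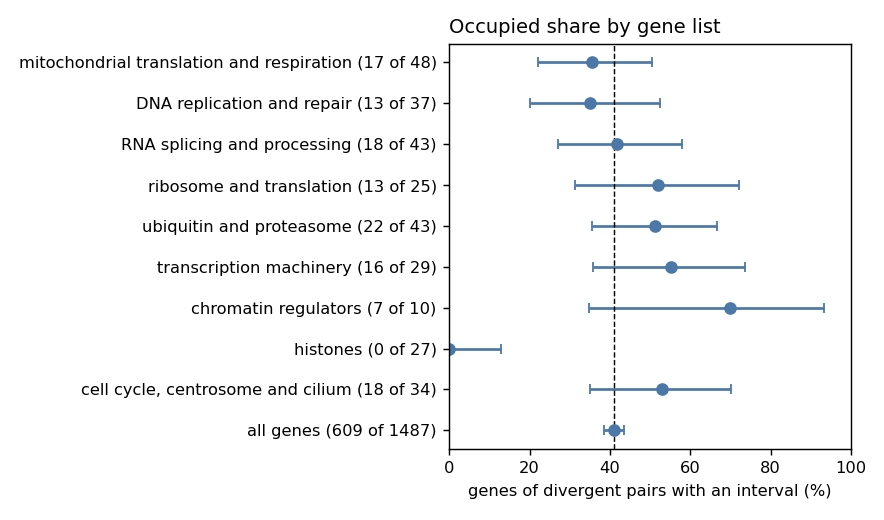
Share of genes of divergent pairs that had an Eya1 interval at their pair (x axis, %), by gene list, with exact 95% intervals and the counts beside each name. The dashed line marks all pair genes at 41.0%, and histones stand at 0 of 27.

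The X chromosome also lacked members. None of its 20 pairs had an interval (at most 16.8%), against 309 of 734 pairs on autosomes (42.1%). Pairs on the X had a median CpG ratio of 0.601 and those on autosomes 0.778. Single promoters differed in the same direction, with an interval at 17 of 864 on the X (1.97%) and 17.8% on autosomes.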

How the data were processed

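Eya1 ChIP-seq was made from E13.5 kidneys of Eya1HA-FLAG mice in 2 replicates. Per the paper's methods, the authors mapped reads to mm10 with Bowtie and called peaks with MACS at several P cutoffs against input or IgG, and the labels' processing notes name HISAT2 and mm10. The cutoff and control of each list are not given in the sources used here. The deposited files are 3-column peak lists with positions only, so depth is unknown and no height, score or p-value was used. In total 11 mitochondrial peaks were left out.

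Peaks sharing at least 1 bp were joined. Gene 5′ ends came from GENCODE M21 and sequence from GRCm38.p6, the mm10 build. A single promoter had no other protein-coding 5′ end within 2000 bp. CpG standardisation weighted the share of single promoters in each CpG step by the number of pairs in that step. Intervals of 95% are exact binomial. Python 3.11.15, pandas 2.3.3, scipy 1.17.1 and pysam 0.24.0 were used, and the functions were tested on simulated data. No test was run, since there were 2 samples of 1 group.

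Pairs were named when they were classic divergent pairs, had the most replicate 2 bases among members of both lists (8), had both genes in lists, had RE1 with at most 1 mismatch, had the smallest or largest gaps, or lay next to a threshold. Pigf/Cript, Fam126b/Ndufb3, the side features and the single genes named from the lists were chosen after their values were seen. The rule, members and lists were chosen with earlier results of these data known. Sequences from chromosome 18 are not printed. Some items are not reported here.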

Additional observations from a re-analysis of the deposited data

How the results depend on the processing

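No paired analysis was possible because only the Eya1 group has replicate numbers. Of the 61 alternative values, 36 stayed within the limit set around the value reported, 23 moved beyond it and 2 changed sign. The limit was the spread of the value, except that counts of members, motifs and gene lists had a fixed factor.

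The number of members was 180 with a distance of 100 bp, 517 with crossed 5′ ends added and 133 with intervals of both lists only, and 219 to 272 with 1 replicate left out. The share of pairs with an interval was 37.4% with a distance of 500 bp, 24.7% with 100 bp, 17.8% with intervals of both lists only, and 26.3 to 35.0% with 1 replicate left out. The difference from CpG-standardised single promoters changed sign to -3.11 points with a distance of 100 bp. It was 4.21 points with 500 bp, 1.45 with intervals of both lists only, 13.7 with GC percent in place of CpG, 24.1 without standardisation, and 2.79 to 5.83 with 1 replicate left out. The cause was not tested.

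The share of members with the midpoint between the ends was 12.2% for gaps of at least 200 bp and 3.54 to 10.0% with 1 replicate left out. For replicate 2 peaks it was 4.92% for gaps of at least 200 bp, and 5.93% and 15.6% with the outermost and innermost APPRIS principal starts, alternatives chosen after seeing the data. Of 10 motifs, 5 were more frequent at occupied than at other pairs in the promoter windows, 0 in 200 bp on the interval midpoint (set against the pair centre at the other pairs) and 3 between the 5′ ends. The difference of pair genes from single promoters with like CpG past the start was 4.01 points with GC percent and changed sign to -7.51 points with the centred CpG ratio, and these alternatives were also chosen after seeing the data. The lists carry no depth, so a promoter without a peak cannot be called free of Eya1.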
